A study of Rattus norvegicus with 22 samples.

Results

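Ribosome biogenesis genes encode the RNA polymerase I machinery that transcribes ribosomal RNA, the particles that modify and cut it in the nucleolus, and the factors that assemble it with ribosomal proteins into the small and large subunits. The set was a fixed list of 35 genes of nucleolar assembly and RNA polymerase I, put together by function. Its rule held no measured value, but it was chosen with earlier results of these data known. It was followed across injured and sham hippocampus 1 and 14 days after traumatic brain injury (TBI). Of the 35 genes, 33 were among the 17172 genes of the count table and 31 had enough counts to be tested, among 12875 tested genes. Rrp12 and Rrp1b were not found by symbol, Nhp2 was listed at 0 in all 14 samples, and Heatr1 was listed at 1 count in TBI day 1 replicates 1 and 2 and at 0 in the others, so these 4 have no fold change.

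Making a ribosome starts when RNA polymerase I copies the ribosomal RNA repeats into a long precursor. Small nucleolar ribonucleoproteins (snoRNPs) of the box C/D kind methylate this precursor, those of the box H/ACA kind convert uridines in it to pseudouridine, and large assembly complexes then fold and cleave it. The transcription factor MYC is known to raise transcription of many of these genes in growing cells. In the mature brain neurons have prominent nucleoli, while dividing and activated glial and immune cells also raise ribosome production.

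The samples were the right hippocampus, on the side of the injury, of adult male Sprague-Dawley rats, 1 rat per sample. TBI was a moderate lateral fluid percussion injury, a pressure pulse onto the intact dura, and sham rats were anesthetised and operated on in the same way but received no pulse. There were 2 sham rats and 4 TBI rats at day 1, and 4 sham rats and 4 TBI rats at day 14. Levels are CPM (a gene's counts scaled to the library's total, with TMM normalisation), and folds are on the log2 scale of the edgeR fit with its standard error (SE). Total counts ran from 15065540 to 23743703 per sample. Markers of neurons, astrocytes, microglia and oligodendrocytes were present in every group, as the tissue label requires. The choroid plexus markers stood apart in 3 samples, with a mean of 7.41 log2 CPM in sham day 1 replicate 1, 4.62 in TBI day 14 replicate 2 and 6.59 in TBI day 14 replicate 3, against -0.19 to 0.97 in the other samples. Since sham day 1 had only 2 rats that differed in this way, counts of calls at day 1 are also given without each of them where they moved by more than 1.5 times.

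Among RefSeq promoters of the rat assembly GRCr8, taken as 250 bases before to 50 after each gene's start, 32 of the 35 genes had an entry. Short motifs were searched on both strands. The E-box CACGTG, which MYC and related factors can bind, was in 9 of the 32 promoters (28.1%), against 6.65% of all 27457 promoters, 8.79% of the 9597 promoters of tested genes and 8.06% of the 62 promoters of cytosolic ribosomal protein genes. The ETS motif CCGGAAG was in 13 of the 32 (40.6%), against 9.22%, 15.5% and 32.3% of the same sets. Parts of the NRF1 and YY1 motifs, CATGCGC and AGATGGC, were each in 3 of the 32 (9.38%), against 6.39% and 7.59% of the promoters of tested genes. Upstream stretches of 4 genes are shown to let these motifs be read in place, with E-box and ETS matches in capitals: Pes1 and Utp20 hold a single E-box starting 50 and 127 bases before the start of the gene, Dkc1 holds an E-box and 2 ETS matches, and Gar1 holds no E-box but 2 overlapping ETS matches on opposite strands. Each is the 250 bases before the start, 5′ to 3′ on the strand of the gene.
Pes1, chr14:83074096-83074345, strand +: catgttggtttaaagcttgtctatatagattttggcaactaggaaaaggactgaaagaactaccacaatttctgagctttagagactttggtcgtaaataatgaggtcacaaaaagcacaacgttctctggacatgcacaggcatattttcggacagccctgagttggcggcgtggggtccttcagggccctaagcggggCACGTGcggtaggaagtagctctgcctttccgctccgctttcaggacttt
Utp20, chr7:25102850-25103099, strand -: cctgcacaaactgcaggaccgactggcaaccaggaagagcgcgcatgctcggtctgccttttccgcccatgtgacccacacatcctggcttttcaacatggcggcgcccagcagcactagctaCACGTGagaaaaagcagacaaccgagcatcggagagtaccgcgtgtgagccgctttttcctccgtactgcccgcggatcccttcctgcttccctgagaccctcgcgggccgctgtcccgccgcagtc
Dkc1, chrX:157751401-157751650, strand +: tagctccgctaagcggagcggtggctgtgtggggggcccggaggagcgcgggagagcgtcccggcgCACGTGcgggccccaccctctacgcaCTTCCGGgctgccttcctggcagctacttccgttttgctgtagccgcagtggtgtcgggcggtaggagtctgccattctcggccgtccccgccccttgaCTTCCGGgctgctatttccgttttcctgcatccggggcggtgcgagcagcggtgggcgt
Gar1, chr2:221056750-221056999, strand -: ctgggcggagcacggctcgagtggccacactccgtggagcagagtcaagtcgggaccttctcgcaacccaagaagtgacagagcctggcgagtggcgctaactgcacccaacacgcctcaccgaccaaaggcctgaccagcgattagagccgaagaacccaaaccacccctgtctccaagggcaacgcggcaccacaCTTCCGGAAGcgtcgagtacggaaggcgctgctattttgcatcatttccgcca
Beside the changes at day 1 that are described next, 4 of 8 tested genes with an E-box rose, with a median log2 fold change of 0.52, and 7 of 20 without one, with a median of 0.46. With the ETS motif 4 of 12 rose, with a median of 0.58, and without it 7 of 16, with a median of 0.43, and neither difference was tested. A match to these letters is a description of the sequence, and binding was not measured.

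At day 1, 13 of the 31 tested genes were higher in TBI than in sham and none was lower, by edgeR's quasi-likelihood test with Benjamini-Hochberg adjusted p under 0.05. That is 41.9%, against 11.2% of all tested genes called higher and 7.93% called lower. The list was chosen with earlier results of these data known, and the gap between these shares was not tested. The genes that rose were Myc, Fbl, Gar1, Npm1, Rrp9, Nop58, Nop14, Nop2, Utp20, Polr1b, Mrto4, Bop1 and Pes1, with at least 1 in each role of the set. The median log2 fold change over the 31 genes was 0.47, against -0.02 over all tested genes, and 29 of the 31 values were above 0. At an unadjusted p under 0.05 there were 18 genes, all higher, and limma-voom and DESeq2 also called 0 lower. In bulk tissue a change in how many cells of a type are present and a change in RNA per cell cannot be told apart.

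Sample by sample, the 4 TBI day 1 rats lay above both sham day 1 rats for 18 of the 31 genes (58.1%), against 16.7% of all tested genes, and below them for 0, against 14.1%. For 13 genes the 4 TBI day 1 rats lay above all 10 other rats of the study, against 8.26% of all tested genes, and for 0 they lay below all 10, against 5.93%. The mean log2 CPM over the 31 genes, centred over the 14 samples, was 0.29, 0.50, 0.39 and 0.36 in the 4 TBI day 1 rats and lay between -0.26 and -0.0002 in the other 10. The highest of those 10 was sham day 1 replicate 2, and the pooled SD within groups was 0.081, so the day 1 injured rats formed a separate upper group on this average.

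**Figure D1:**
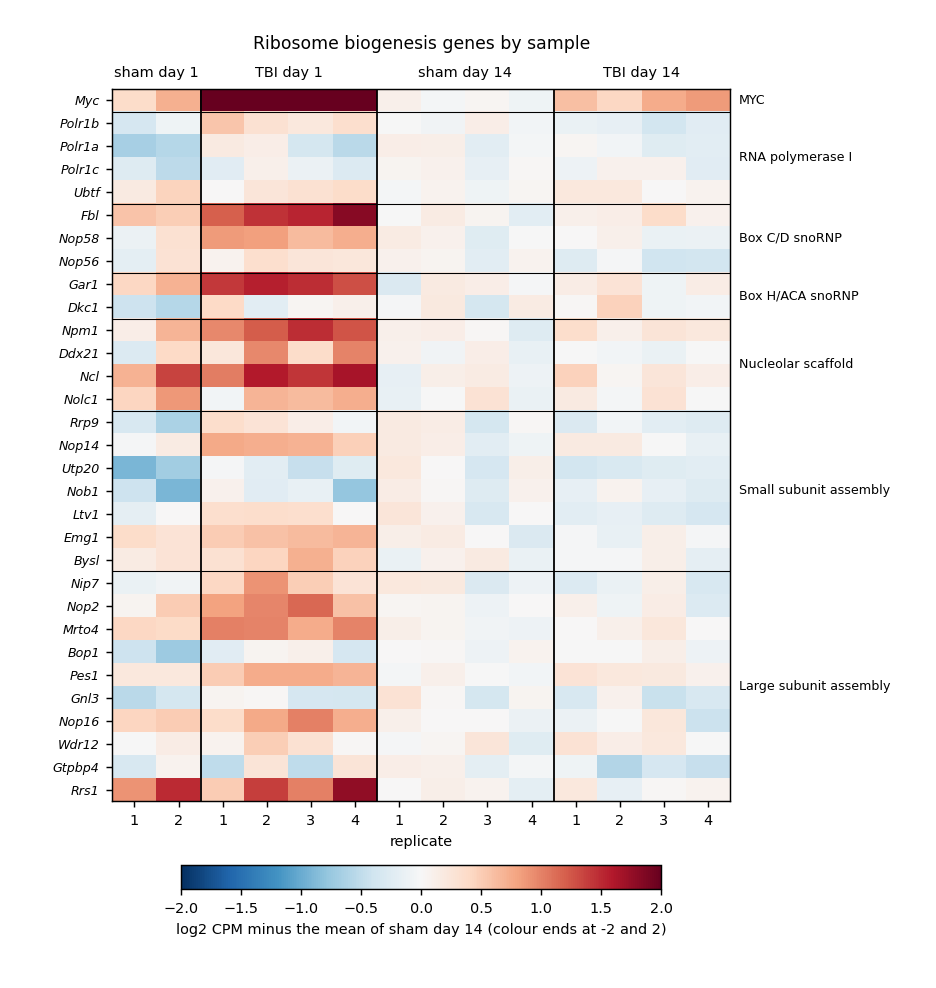
Heat map of the 31 tested genes (rows, grouped by role) in 14 rats (columns, grouped by condition), coloured by log2 CPM minus the mean of the 4 sham day 14 rats. The TBI day 1 columns are the reddest for most genes, with Myc beyond the end of the scale, while Rrs1, Ncl and Nolc1 are also red in the sham day 1 columns.

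The count of called genes fell most when the 6 day 1 samples were fitted alone, and next most when 1 of the 2 sham day 1 rats was left out. Without sham day 1 replicate 1 the call was kept by 7 genes (Fbl, Gar1, Myc, Bop1, Mrto4, Pes1 and Rrp9), while 12.8% of all tested genes were called higher. Without replicate 2 it was kept by 7 (Fbl, Gar1, Myc, Nop2, Nop58, Npm1 and Polr1b), with 4.37% of all tested genes, so Fbl, Gar1 and Myc were the 3 called in both. A fit of the 6 day 1 samples alone called 2 genes, Myc and Fbl, and 4.38% of all tested genes. With the choroid plexus score as a covariate 11 genes were called, with 10.9% of all tested genes. Bop1 and Nop2 also lost their calls without TBI day 1 replicate 2 or 3. The median log2 fold change stayed positive in each of these fits.

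Proliferation genes and markers of several cell types also differed between TBI and sham at day 1. Of 12 proliferation genes 11 rose, with a summed level of 95.1 to 101 CPM in sham day 1 and 194.9 to 383.5 CPM in TBI day 1. All 5 tested myeloid genes (S100a8, S100a9, Cd163, Mrc1 and Plac8) rose. Their summed level went from 4.43 to 7.33 CPM in sham to 38.3 to 77.5 CPM in TBI, and whether such cells had entered from the blood was not tested. Neuron markers summed to 6345 to 9208 CPM in sham and 2352 to 5701 CPM in TBI, with 4 of 9 lower. The summed level of astrocyte markers went from 5813 to 9126 CPM in sham to 12720 to 18710 CPM in TBI, with Gfap the only one of 7 that rose. Endothelial markers went from 218 to 371 CPM to 481 to 816 CPM, with 2 of 6 higher, and microglia markers from 440 to 705 CPM to 783 to 1015 CPM, with 3 of 9 higher and 2 lower. Among 6 oligodendrocyte markers 2 were lower, and their sums overlapped, at 10530 to 14580 CPM in sham and 4070 to 15510 CPM in TBI. Of 13 tested choroid plexus markers 11 were lower. Their list summed to 11270 CPM in sham day 1 replicate 1, 210.4 CPM in replicate 2 and 124.1 to 151.5 CPM in TBI. The part of these cells in the increase of the ribosome biogenesis genes was not tested.

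Myc, the transcription factor that drives growth and ribosome production, changed most. It stood at 10.5 and 13.4 CPM in the 2 sham day 1 rats and at 39.7, 68.0, 51.4 and 41.8 CPM in the 4 TBI day 1 rats. At day 14 it was at 8.72, 7.87, 8.33 and 7.62 CPM in sham and at 12.4, 10.8, 13.7 and 14.7 CPM in TBI. The groups did not overlap at either day, and every TBI day 1 rat was far above all others. The log2 fold change was 2.07 at day 1 (SE 0.23, edgeR adjusted p = 3.28e-05), which is 4.20-fold.

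Of the RNA polymerase I genes, Polr1b rose and the other three did not pass the test at day 1. Polr1b, the second largest subunit of the enzyme, was at 14.7 and 17.5 CPM in sham day 1 and at 27.2, 22.9, 21.5 and 23.5 CPM in TBI day 1. All 4 injured rats were above the shams of both days, which reached 20.3 CPM, and the log2 fold change was 0.56 (SE 0.15, edgeR adjusted p = 0.0179). Polr1a, the largest subunit, was at 39.1 and 41.7 CPM in sham and at 69.7, 67.7, 48.4 and 42.6 CPM in TBI. Its injured rats were spread wide, with replicate 4 close to the shams, and the log2 fold change of 0.50 was not called (edgeR adjusted p = 0.0818). Polr1c, a subunit shared with RNA polymerase III, was at 21.3 and 17.5 CPM in sham and at 21.6, 27.3, 23.3 and 20.9 CPM in TBI, and these groups overlapped. Ubtf, the factor that opens ribosomal DNA for the polymerase, was at 214 and 257 CPM in sham and at 188, 222, 232 and 243 CPM in TBI. It had one of the 2 negative values of the set, -0.09, within an SE of 0.13.

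Both kinds of snoRNP had a member that rose strongly. Fbl, the methyltransferase of box C/D snoRNPs, was at 32.9 and 31.1 CPM in sham day 1 and at 50.8, 60.5, 63.3 and 78.6 CPM in TBI day 1. The lowest injured rat was well above the highest sham, and the log2 fold change was 0.98 (SE 0.17, edgeR adjusted p = 0.00144). Gar1, a core protein of box H/ACA snoRNPs, was at 8.30 and 10.1 CPM in sham and at 16.7, 18.4, 17.4 and 15.2 CPM in TBI. Its 4 injured rats lay close together above every other rat, with a log2 fold change of 0.88 (SE 0.19, edgeR adjusted p = 0.00481). Its promoter holds ETS matches, as do those of Nop58, which also rose, and Dkc1, which was not called. Pes1 and Utp20 rose without an ETS match, and a link between motif and change was not tested.

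The partners of these enzymes did not all move with them. Nop58, a box C/D scaffold protein, was at 56.9 and 76.7 CPM in sham and at 112, 109, 96.1 and 103 CPM in TBI, without overlap (log2 fold change 0.65, SE 0.15, edgeR adjusted p = 0.00881). Nop56, its paralog in the same particle, was at 99.2 and 139 CPM in sham and at 119, 143, 134 and 134 CPM in TBI. The Nop56 groups overlapped, and its value of 0.16 was not called. Dkc1, the pseudouridine synthase of H/ACA snoRNPs, was at 88.9 and 79.4 CPM in sham and at 156, 102, 122 and 126 CPM in TBI. Its groups did not overlap, but the log2 fold change of 0.59 missed the threshold (edgeR adjusted p = 0.0572).

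Among the nucleolar scaffold and helicase genes, Npm1 rose at day 1 and Ddx21, Ncl and Nolc1 did not pass the test. Npm1, the nucleolar histone chaperone nucleophosmin, was at 35.6 and 52.0 CPM in sham and at 63.0, 74.8, 90.3 and 77.0 CPM in TBI. All injured rats were higher, with a log2 fold change of 0.80 (SE 0.18, edgeR adjusted p = 0.00707). Ddx21, an RNA helicase of the nucleolus, was at 12.6 and 20.2 CPM in sham and at 17.9, 29.9, 19.8 and 30.4 CPM in TBI, in overlapping groups. Nolc1, a phosphoprotein that binds snoRNPs and RNA polymerase I, was at 217 and 296 CPM in sham and at 156, 260.3, 252 and 269 CPM in TBI. Its value of -0.13 was the lowest of the set and was not called, and TBI replicate 1 lay far under the other three. Ncl, nucleolin, was chosen for description after its values were seen. It was at 192 and 303 CPM in sham day 1 and at 244, 359, 323 and 375 CPM in TBI day 1, so the groups overlapped (log2 fold change 0.39, SE 0.21, edgeR adjusted p = 0.195).

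Of the 7 tested genes of small subunit assembly, Rrp9, Nop14 and Utp20 rose and the other 4 had positive values that were not called. Rrp9, a protein of the U3 snoRNP that guides early cleavage, was at 32.3 and 25.9 CPM in sham and at 51.5, 48.6, 44.1 and 38.6 CPM in TBI. Its groups did not overlap (log2 fold change 0.65, SE 0.17, edgeR adjusted p = 0.0173). Nop14, a factor of the early small subunit particle, was at 40.1 and 45.7 CPM in sham and at 69.2, 67.8, 66.0 and 56.9 CPM in TBI, again without overlap (log2 fold change 0.60, SE 0.15, edgeR adjusted p = 0.0143). Bysl, a late factor of the same subunit, was at 21.3 and 23.1 CPM in sham and at 23.5, 25.6, 31.4 and 26.3 CPM in TBI. Its injured rats were above the shams without overlap, and the value of 0.26 was not called. The log2 fold changes were 0.41 for Nob1, the endonuclease that makes the final cut of small subunit RNA, 0.34 for Ltv1 and 0.29 for Emg1, a methyltransferase.

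Utp20, a very large scaffold protein of the early particle whose printed promoter holds an E-box, was chosen for description after its values were seen. It was at 29.9 and 34.4 CPM in sham day 1, at 55.1, 48.5, 40.8 and 47.5 CPM in TBI day 1, at 64.8, 56.5, 44.6 and 60.8 CPM in sham day 14 and at 43.6, 45.5, 47.5 and 48.2 CPM in TBI day 14. The sham day 1 rats were the 2 lowest of the study, and the TBI day 1 rats overlapped both day 14 groups. Against sham day 1 it rose by 0.58 on the log2 scale (SE 0.16, edgeR adjusted p = 0.0222).

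Of the 10 tested genes of large subunit assembly, 4 rose: Nop2, Mrto4, Bop1 and Pes1. Nop2, a methyltransferase of large subunit RNA, was at 17.3 and 23.6 CPM in sham and at 29.1, 32.7, 37.1 and 25.1 CPM in TBI. The lowest injured rat was just above the higher sham (log2 fold change 0.60, SE 0.19, edgeR adjusted p = 0.0371). Mrto4, which holds the place of a stalk protein on the immature subunit, rose by 0.54 (SE 0.13, edgeR adjusted p = 0.0116). Bop1 and Pes1, partners in the PeBoW complex that processes large subunit RNA, rose by 0.47 and 0.45, while Wdr12, the other subunit of that complex, had a value of 0.17 that was not called. Nip7, an assembly factor, was at 7.44 and 7.75 CPM in sham and at 10.9, 15.3, 11.5 and 9.89 CPM in TBI. These groups did not overlap, but its log2 fold change of 0.65 (SE 0.22) missed the threshold (edgeR adjusted p = 0.0544). Gnl3, the nucleolar GTPase nucleostemin, and Nop16 had values of 0.30 and 0.26, and Gtpbp4, another nucleolar GTPase, had 0.04, none of them called.

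Rrs1, a factor that brings 5S ribonucleoprotein into the large subunit, had the smallest difference between injured and sham rats at day 1. It was at 36.3 and 55.1 CPM in sham day 1 and at 27.6, 50.9, 39.4 and 66.6 CPM in TBI day 1, so that injured rats lay on both sides of the shams. The log2 fold change was 0.01 (SE 0.26, edgeR adjusted p = 0.978), and its sign changed with the sample left out and with the tool. In both day 14 groups all rats were lower, at 19.6, 21.2, 20.3 and 16.9 CPM in sham and at 22.6, 17.3, 19.8 and 20.4 CPM in TBI.

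**Figure D2:**
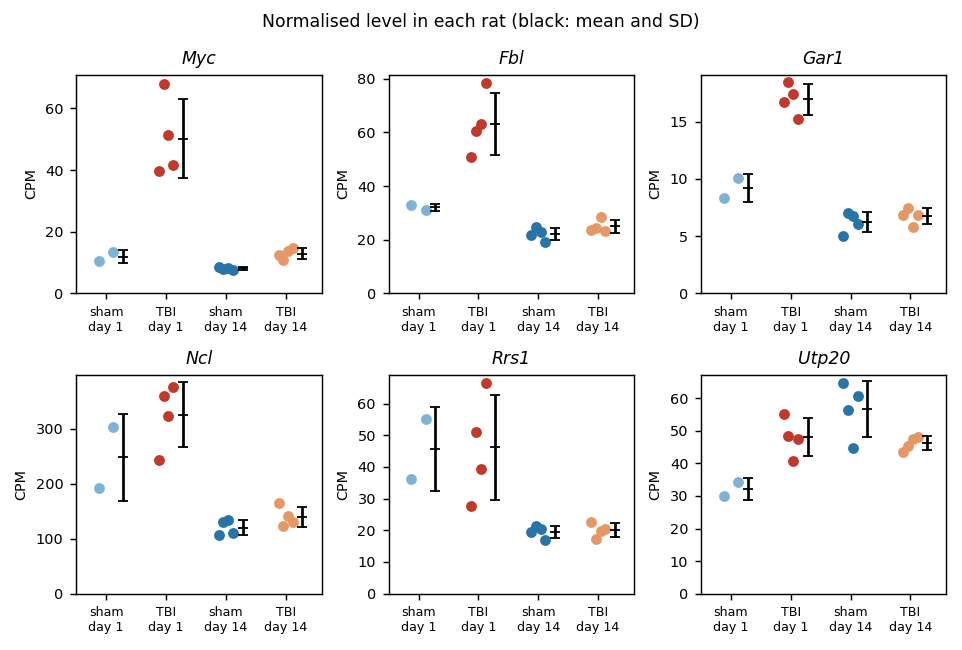
Level of 6 genes in each rat, in CPM from 0 on the vertical axis, by group on the horizontal axis; coloured points are single rats and black bars are the mean and SD. The TBI day 1 rats are above all others for Myc, Fbl and Gar1, whereas Ncl and Rrs1 are high in both day 1 groups and Utp20 is lowest in sham day 1.

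At day 14 the increase was not seen in the set as a whole. Myc was the single gene of 31 called higher (3.23%), against 4.07% of all tested genes, and 0 were called lower by edgeR, limma-voom or DESeq2, against 0.365%. At an unadjusted p under 0.05 there was 1 higher gene, Myc, and 1 lower, Utp20. The median log2 fold change was -0.03, equal to the -0.03 of all tested genes, and values ran from -0.37 to 0.67. Myc rose by 0.67 (SE 0.17, edgeR adjusted p = 0.0408). That call was lost with limma-voom and without any 1 of 7 of the 8 day 14 rats, the exception being TBI day 14 replicate 2. In the CPM, Myc was the only gene of the set for which all injured rats were above all shams (9.13% of all tested genes), and Polr1b the only one for which all were below (5.86%). Polr1b was at 18.3, 17.5, 20.3 and 17.8 CPM in sham and at 16.9, 16.5, 14.3 and 15.8 CPM in TBI, and its fold change of -0.22 was not called (edgeR adjusted p = 0.506).

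Fbl, Gar1 and Npm1, which rose at day 1, were not called at day 14. Fbl was at 21.9, 24.7, 23.0 and 19.1 CPM in sham and at 23.8, 24.3, 28.5 and 23.4 CPM in TBI, and Gar1 at 5.05, 7.03, 6.76 and 6.04 CPM against 6.83, 7.44, 5.81 and 6.86 CPM. Npm1 was at 34.8, 35.3, 32.9 and 26.9 CPM in sham and at 41.3, 34.8, 38.6 and 37.3 CPM in TBI. The groups overlapped for each of these 3 genes. For Npm1 only the lowest injured rat, at 34.8 CPM, lay within the sham range.

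Other genes given above by rat at day 1 also overlapped between sham and TBI at day 14, and none of them was called. Of the polymerase genes, Polr1a in TBI was at 63.8, 59.8, 52.3 and 53.2 CPM, within or near the sham range of 53.5 to 67.6 CPM. Polr1c was at 26.3, 26.9, 22.7 and 25.8 CPM in sham and at 23.7, 27.0, 26.9 and 21.6 CPM in TBI, and Ubtf at 184, 198, 178 and 193 CPM against 218, 217, 190.1 and 198 CPM. For Ubtf, 2 injured rats were above all shams.

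Among snoRNP and scaffold genes, Nop58 was at 69.1, 65.7, 52.3 and 61.3 CPM in sham and at 62.2, 66.5, 56.3 and 56.8 CPM in TBI. Nop56 was at 121, 118, 98.2 and 119 CPM in sham and at 95.1, 111, 86.3 and 88.2 CPM in TBI, so that 3 injured rats were under every sham. Dkc1 was at 117, 136, 92.8 and 133 CPM in sham and at 121, 163, 111 and 114 CPM in TBI, and Ddx21 at 16.1, 14.6, 16.7 and 13.8 CPM against 15.3, 14.7, 13.9 and 15.3 CPM. Neither showed a shift beyond the spread of its shams.

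Among assembly factors, Rrp9 was at 45.4, 44.5, 31.4 and 40.9 CPM in sham and at 33.0, 38.7, 34.7 and 33.7 CPM in TBI, where sham replicate 3 alone lay under the injured rats. Nop14 was at 46.1, 44.6, 35.2 and 38.5 CPM in sham and at 46.5, 46.5, 40.7 and 36.8 CPM in TBI, and Bysl at 17.4, 20.1, 21.5 and 17.4 CPM against 18.8, 18.8, 20.6 and 16.9 CPM. Of the large subunit genes, Nip7 was at 9.44, 9.31, 6.65 and 7.57 CPM in sham and at 6.77, 7.44, 8.89 and 6.49 CPM in TBI. Nop2 was at 17.0, 17.3, 15.6 and 16.7 CPM in sham and at 17.8, 15.6, 18.4 and 13.7 CPM in TBI, with injured rats at both ends of the range.

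**Figure D3:**
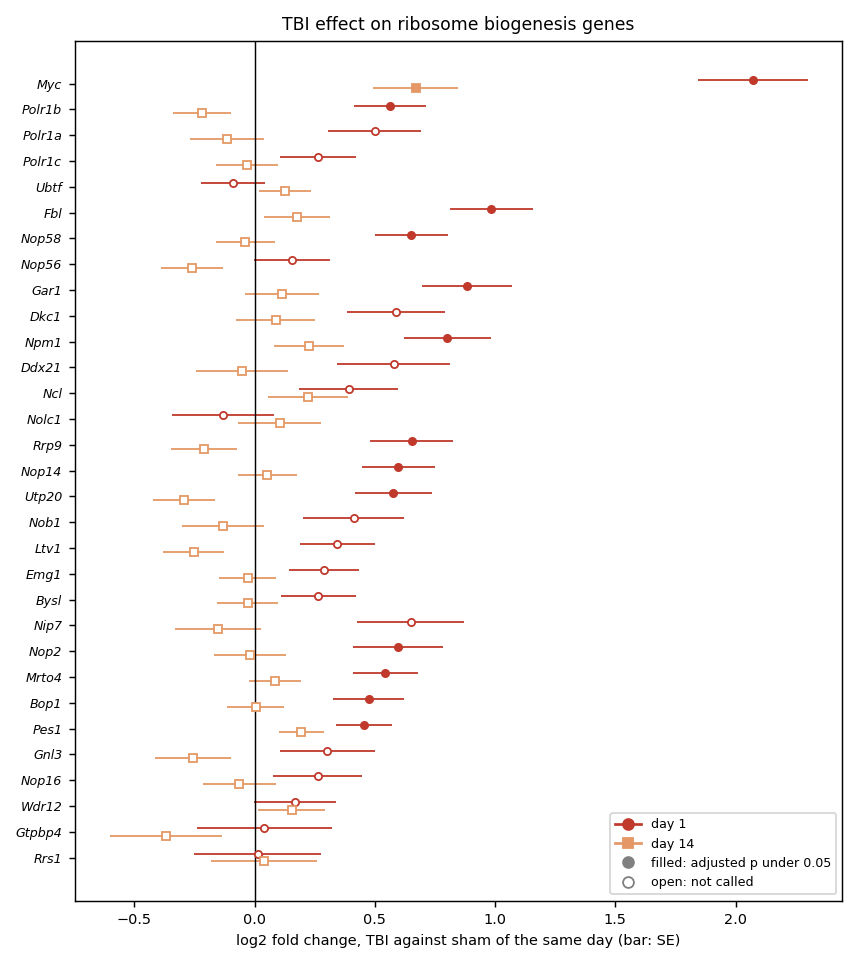
Log2 fold change of TBI against sham of the same day (horizontal axis) for the 31 tested genes in order of role, with day 1 as circles, day 14 as squares and bars for the SE; filled marks have an edgeR adjusted p under 0.05. Day 1 marks lie to the right of 0 for 29 genes and 13 are filled, while at day 14 only Myc is filled.

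The change between the days was itself tested. For 4 of the 31 genes (12.9%) the effect of TBI was larger at day 1 than at day 14, against 2.24% of all tested genes, and for 0 it was smaller, against 1.44%. These were Myc, with a difference of 1.40 on the log2 scale (SE 0.28, edgeR adjusted p = 0.0124), Utp20 with 0.87, Rrp9 with 0.86 and Polr1b with 0.78. Mean levels at day 1 and day 14 were 47.97 and 46.19 CPM in TBI and 32.15 and 56.67 CPM in sham for Utp20. For Rrp9 they were 45.71 and 35.02 CPM in TBI and 29.09 and 40.56 CPM in sham. For Polr1b they were 23.76 and 15.88 CPM in TBI and 16.07 and 18.49 CPM in sham. Each of these had a lower sham mean at day 1 than at day 14, while Myc had a higher one. Fbl, with 0.81, was just past the threshold on the other side (edgeR adjusted p = 0.0538). The median difference over the 31 genes was 0.54. With the choroid plexus score as a covariate edgeR called none, with 11 at an unadjusted p under 0.05 and 0.948% of all tested genes called higher, and Myc had a difference of 1.24 (edgeR adjusted p = 0.0753). Leaving out sham day 14 replicate 1, 2 or 4, or else replicate 1, 2 or 3 of the injured day 14 rats, left 1 call each time, with 1.33% to 1.66% of all tested genes called higher. Leaving out sham day 1 replicate 1 or the remaining injured day 14 rat left 2, with 3.36% and 1.76%.

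Part of the set also differed between the sham groups, which received no pulse but had the same surgery 1 or 14 days before. The paper took sham day 14 as the baseline of its trajectories, as those rats were past the acute sham injury. Sham day 1 was higher than sham day 14 for 6 of the 31 genes (19.4%), against 11.3% of all tested genes, and lower for 4 (12.9%), against 7.88%. The higher genes were Rrs1 with a log2 fold change of 1.23 (SE 0.26, edgeR adjusted p = 0.00719), Ncl with 1.05 (SE 0.20, edgeR adjusted p = 0.00422), Nolc1 with 0.65, Gar1 with 0.56, Fbl with 0.53 and Mrto4 with 0.40. The lower genes were Utp20 with -0.82 (SE 0.16, edgeR adjusted p = 0.00571), Nob1 with -0.65, Polr1a with -0.62 and Bop1 with -0.56. Without sham day 1 replicate 2 edgeR called none higher, with 4 at an unadjusted p under 0.05, and 1 lower, and of all tested genes 5.30% were higher and 278 lower. Without sham day 14 replicates 1, 2, 3 or 4 in turn, 2, 3, 5 and 2 were higher and 2, 2, 7 and 1 were lower. Of the 12875 tested genes 6.77%, 6.84%, 11.6% and 6.27% were higher in these fits, and 562, 596, 1207 and 519 were lower. With all rats kept, 1014 of the 12875 (7.88%) were lower.

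For 12 of the 31 genes (38.7%) both sham day 1 rats were above all sham day 14 rats, against 21.3% of all tested genes, and for 7 (22.6%) they were below, against 20.1%. Ncl was at 192 and 303 CPM in sham day 1, against 106, 129.7, 133 and 111 CPM in sham day 14 and 165, 123, 141 and 131 CPM in TBI day 14. Both sham day 1 rats, like all TBI day 1 rats, were above every day 14 rat. Nolc1 was at 146, 160.3, 199 and 148 CPM in sham day 14 and at 184, 158, 199 and 161 CPM in TBI day 14, under the 217 and 296 CPM of sham day 1. Polr1a went the other way, with 67.6, 66.9, 53.5 and 60.1 CPM in sham day 14 against 39.1 and 41.7 CPM in sham day 1. Its TBI day 1 rats ran from 42.6 to 69.7 CPM and lay above or below the day 14 rats.

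Set against sham day 14, TBI day 1 was higher for 18 of the 31 genes (58.1%), against 25.0% of all tested genes, and lower for 0, against 21.0%, with a median of 0.52. All 4 injured rats were above all 4 sham rats for 17 genes (54.8%), against 22.2% of all tested genes, and below them for 0, against 17.8%. This comparison shares its TBI rats with the day 1 comparison and its sham rats with the day 14 and sham comparisons, so values are given side by side. Myc was 2.63 above sham day 14 in TBI day 1 and 0.55 above it in sham day 1, the latter not called. For Fbl the values were 1.51 and 0.53, for Gar1 1.44 and 0.56, and for Mrto4 0.94 and 0.40. Ncl stood at 1.44 and 1.05 and Rrs1 at 1.24 and 1.23, so that for Rrs1 the injured and sham rats of day 1 were equally far from sham day 14 within an SE of about 0.26. Bop1, Polr1a, Nob1 and Utp20 had values of -0.09, -0.12, -0.24 and -0.24 in TBI day 1 that were not called, against -0.56, -0.62, -0.65 and -0.82 in sham day 1. The day 1 calls of Bop1 and Utp20 therefore came with sham day 1 levels under those of sham day 14, and with injured levels not called apart from sham day 14. Rrp9, also called at day 1, had a mean of 29.09 CPM in sham day 1 and 40.56 CPM in sham day 14, a difference not called. Its TBI day 1 value of 0.17 against sham day 14 was not called either.

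**Figure D4:**
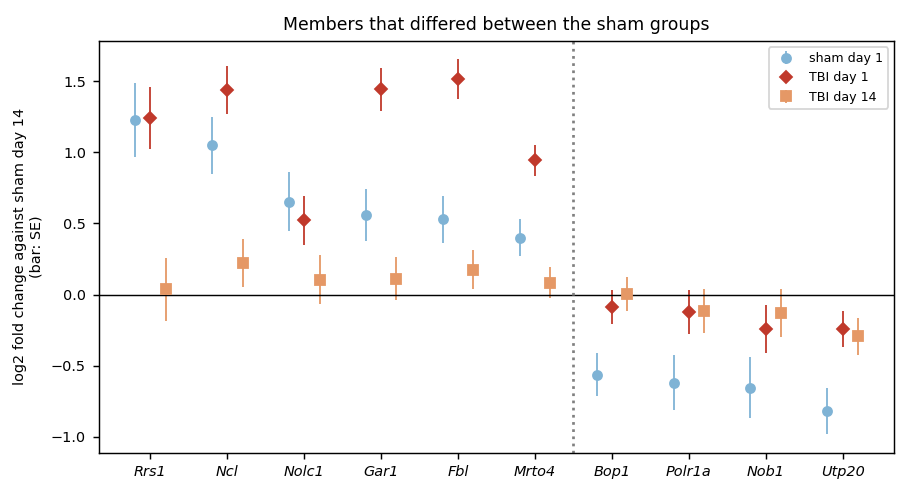
Log2 fold change against sham day 14 (vertical axis, bars SE) for the 10 genes that differed between the sham groups, in sham day 1 (circles), TBI day 1 (diamonds) and TBI day 14 (squares). To the left of the dotted line Fbl, Gar1 and Mrto4 are higher again in TBI day 1, whereas for Rrs1 both day 1 marks lie at the same height; to the right the 4 genes that were low in sham day 1 are near 0 in TBI day 1.

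There were 106 tested genes in lists of further RNA polymerase I, snoRNP, small subunit, large subunit and RNA exosome factors. At day 1, 14 rose (13.2%), close to the 11.2% of all tested genes, and 0 fell, against 7.93%. Their median log2 fold change was 0.22, against -0.02 over all tested genes, and 89 of the 106 values were above 0. The difference from the share of the listed genes was not tested. Among 11 RNA polymerase I factors 2 rose, Cd3eap, a polymerase subunit, by 0.95 and Tcof1, the treacle protein, by 0.41. Pih1d1, a cofactor of snoRNP assembly, was the single one of 8 in its list, with 0.66. Among 35 small subunit factors 5 rose, led by Wdr46 with 0.94 and Utp14a with 0.90, and 5 of 40 large subunit factors, led by Ftsj3, a methyltransferase, with 0.91 and the helicase Ddx54 with 0.80. Exosc2, with 0.47, was the only one of 12 exosome genes that rose. Without sham day 1 replicate 2, 4 of the 106 were called. At day 14, 1 of the 106 was called (0.943%), against 4.07% of all tested genes higher. It was Cd3eap with 0.61 (SE 0.13, edgeR adjusted p = 0.00998).

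Of 70 tested genes for cytosolic ribosomal proteins, the building blocks of both subunits, 33 had higher mRNA levels at day 1 (47.1%) and 0 lower. Of all tested genes 11.2% were higher and 7.93% lower. The median log2 fold change of the 70 was 0.75, and Rps18 was among the higher genes with 1.92. At day 14, 0 were called by edgeR, limma-voom or DESeq2, against 4.07% of all tested genes higher and 0.365% lower by edgeR. By edgeR 2 were higher and 2 lower there at an unadjusted p under 0.05. Without sham day 1 replicate 2 edgeR called none of the 70 at day 1, with 24 higher at an unadjusted p under 0.05, and without replicate 1 it called 40. These genes have many near-identical processed copies in the genome, and so do Npm1 and Ncl to a lesser degree, so that the share of reads given to each is uncertain.

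The MYC network and the p53 targets gave mixed results. In the MYC network, 0 of 10 tested genes rose at day 1 by edgeR, limma-voom or DESeq2, with 1 higher at an unadjusted p under 0.05, against 11.2% of all tested genes, and 2 fell, against 7.93%: Mycl, a paralog of Myc, by 0.87 (SE 0.23, edgeR adjusted p = 0.0173) and Mxi1, which opposes MYC, by 0.41. Without either sham day 1 rat, or with the choroid plexus covariate, the list had 1 lower call. Max, the partner that MYC needs to bind the E-box, had a value of 0.04 that was not called. Over the 10 genes the day 1 values ran from -0.9067 to 2.015, and neither end was called. The p53 targets are known to respond when ribosome assembly or DNA is disturbed. Of 12 tested, 3 rose (25%), against 11.2% of all tested genes, led by Gadd45a with 2.29 (SE 0.26, edgeR adjusted p = 4.62e-05) and the nuclease gene Aen with 1.07. Zmat3 was the 1 that fell (8.33%, against 7.93%), by 0.63. Without sham day 1 replicate 2, 2 p53 targets were higher and Zmat3 was not called, nor was it by limma-voom. Gadd45a was also higher at day 14, by 1.01.

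**Figure D5:**
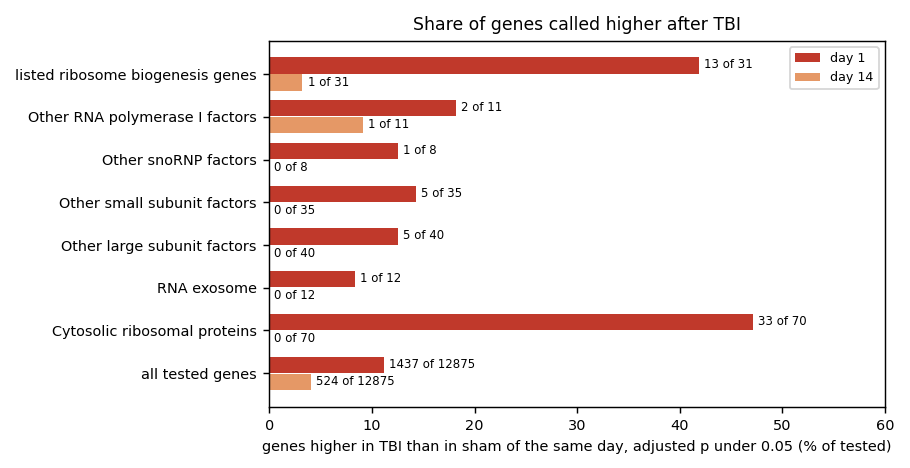
Share of tested genes higher in TBI than in sham of the same day (horizontal axis, percent from 0) at day 1 and day 14, for the listed ribosome biogenesis genes, other lists of the pathway and all tested genes, with counts beside the bars. The listed genes (41.9%) and the cytosolic ribosomal protein genes (47.1%) stand above all tested genes (11.2%) at day 1, and the other lists lie between 8.33% and 18.2%.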

How the data were processed

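RNA-seq of 14 rat hippocampus samples was used. The authors aligned reads to rn5 with STAR 2.4.2a and used featureCounts 1.5.0 with UCSC gene models, and the deposited values are raw counts per gene. The strand setting and the handling of reads with several matches are not given in the sources used here. H3K4me3 peak lists were not used here, since no rn5 annotation was at hand. Samples were grouped by their labels, with 1 rat each, and replicates differed by more than counting noise (chi-square per degree of freedom 13.3 to 171).

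The counts went into edgeR 4.0.16 under R 4.3.3: default filter by group, TMM factors, 1 mean per group over all 14 samples, two-sided quasi-likelihood tests, and Benjamini-Hochberg adjustment over 12875 genes at 0.05. SE is the log2 fold change divided by the root of F. Levels are TMM CPM, and log2 CPM has a prior count of 2. The scripts were tested on simulated data. Alternatives were limma-voom 3.58.1 (the authors' method), DESeq2 1.42.0, median-of-ratios factors, no count filter, a minimum of 10 counts per sample, a block for the replicate number, the choroid plexus score as a covariate, only the compared groups, and each sample left out. No list was tested as a set.

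The genes and lists were chosen with earlier results of these data known. Levels per rat are given for Myc, the 4 RNA polymerase I genes and, in each other role, the 2 genes with the largest and the 1 with the smallest absolute change at day 1. From each further list the 2 largest called changes and any opposite call are named, except for 1 gene that is not reported here. Max was named after its values were seen, as were Ncl and Utp20. RefSeq promoters of GRCr8 were matched by symbol, and no coordinate was converted between builds. The same-numbered replicates of different groups did not deviate together.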

Additional observations from a re-analysis of the deposited data

Results flagged for a closer look

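Within groups of 4 rats, 93 sets of values were searched for a sample far from the others, and 4 were found; chance gives about 1 in 20. Each is stated as the gap to the nearest rat divided by the range of the group. Ltv1 in TBI day 1 replicate 4 was low (0.936), at 43.0 CPM against 53.9 to 54.8 CPM. Mrto4 in TBI day 1 replicate 3 was low (0.9), at 35.8 CPM against 42.2 to 43.0 CPM in the others. Nolc1 in TBI day 1 replicate 1 was low (0.884), at 156 CPM against 252 to 269 CPM. Nop56 in sham day 14 replicate 3 was low (0.897), at 98.2 CPM against 118 to 121 CPM. For 4 genes the effect of TBI differed between day 1 and day 14 by edgeR's interaction test, and the differences on the log2 scale were 1.403 for Myc, 0.7836 for Polr1b, 0.8632 for Rrp9 and 0.8714 for Utp20.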

How the results depend on the processing

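The day 1 count of 13 higher genes fell to 2 when only the day 1 samples were fitted and ran from 7 (without either sham day 1 rat, where the lone rat was assumed to vary like the other groups) to 16 with single rats left out; limma-voom gave 13 and DESeq2 15. Of all tested genes 10.9% were called higher at day 1 with limma-voom and 13.3% with DESeq2. The single day 14 call, Myc, became 0 with limma-voom and with the replicate block (edgeR adjusted p = 0.069) and was 0 to 1 with rats left out. There 3.41% of all tested genes were called higher with limma-voom and 3.69% with the block. The 4 differences between days became 7 with DESeq2 and 0 with the choroid plexus covariate, and 1 to 4 with rats left out, with a median of 0.46 to 0.64. Between the shams the 6 higher genes became 3 with limma-voom and 3 with the covariate (median 0.19 against 0.10), and with rats left out 0 to 5 were higher and 1 to 7 lower, with a median of -0.034 to 0.27. Against sham day 14, TBI day 1 had 0 to 1 lower genes with rats left out. The genes that changed sign at day 1 were never called: Gtpbp4 was at -0.050 with the covariate, and with rats left out it ran from -0.14 to 0.25, Nolc1 from -0.34 to 0.11, Nop56 from -0.065 to 0.42 and Ubtf from -0.22 to 0.049. Rrs1 was at -0.028 with limma-voom, -0.0019 with DESeq2 and with median-of-ratios factors, -0.056 with the replicate block, -0.11 with the covariate and -0.26 to 0.35 with rats left out. The cause of these shifts was not tested. Replicate numbers did not pair the samples: over 18 same-numbered pairs of different groups the correlation of deviations ran from -0.35 to 0.24, with a median of 0.034, and over 54 pairs of different numbers from -0.43 to 0.35. The block gave 15 higher genes at day 1, 5 differences between days, and 4 higher and 6 lower genes between the shams. Of the 12875 tested genes 11.4%, 2.13% and 11.7% were called higher in these block comparisons. Between the shams 1273 were lower with the block, against 1014 (7.88%) without it. For the difference between days, DESeq2 called 4.66% of all tested genes higher. Between the shams 9.29% were higher with limma-voom and 8.75% with the covariate. Fewer samples in a fit leave fewer degrees of freedom, and 2 sham rats at day 1 limit every day 1 call.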
